A study of Mus musculus and Homo sapiens with 4 samples.

Results

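The 9 genes described here lie around the long non-coding RNA (lncRNA) gene Neat1 on mouse chromosome 19: Ltbp3, Malat1, Neat1, Frmd8, Slc25a45, Tigd3, Dpf2, Cdc42ep2 and Pola2. They were chosen by name and position, and they are 9 of the 23329 entries in the expression values of mouse embryonic fibroblasts (MEFs). MEFs are primary connective tissue cells grown from whole embryos. The libraries labelled MEF WT (wild type) and MEF NEAT1 KO (knockout) were compared. Both came from C57BL/6 embryos at E13.5, from cells at passages 2 to 3 grown in a mixture of DMEM and HamF12 medium, and both were poly-A+ RNA. The sources used here give neither the deleted stretch of the NEAT1 KO allele nor the number or sex of the embryos behind each culture. There was 1 library per genotype, so no difference has a replicate check, no test was possible and no P-value is given. The other libraries of the series are human and entered no comparison.

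Neat1 gives rise to a short polyadenylated RNA and to a long RNA that shares its start, and the long RNA is the scaffold of paraspeckles, nuclear bodies that also hold RNA-binding proteins such as SFPQ and NONO. Malat1, the next gene downstream, encodes an abundant nuclear RNA that gathers at nuclear speckles, which hold splicing factors. The long Neat1 RNA and the mature Malat1 RNA are both cut at their 3′ end by RNase P and end in a triple helix and not in a conventional poly-A tail. Mouse lines that lack Neat1 or Malat1 are viable, and changes in the levels of adjacent genes are one of the readouts by which such lines are examined.

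The 3′ ends are shown because poly-A+ RNA was sequenced. The last 80 bases of the transcripts annotated by GENCODE in GRCm38 (mm10), all on the minus strand of chromosome 19, are given 5′ to 3′, with the polyadenylation signal AATAAA in capitals where it occurs. The short Neat1 transcript (chr19:5842307-5845476) has 2 exons in this annotation and a length of 3004 bases. The long Neat1 transcript (chr19:5824708-5845478) has 1 exon and 20771 bases, and the Malat1 transcript (chr19:5795690-5802672) has 1 exon and 6983 bases.
short Neat1: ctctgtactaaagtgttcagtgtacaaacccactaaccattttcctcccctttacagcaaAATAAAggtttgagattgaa
long Neat1: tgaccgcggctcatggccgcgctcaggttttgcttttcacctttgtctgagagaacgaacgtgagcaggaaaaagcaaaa
Malat1: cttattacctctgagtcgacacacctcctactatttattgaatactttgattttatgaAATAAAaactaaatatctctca
The signal stood 14 bases before the end of the short Neat1 transcript and 16 bases before the end of the Malat1 transcript, and it did not occur in the last 80 bases of the long Neat1 transcript. These are ends as annotated. Whether the Malat1 end shown is that of the mature RNA, which is cut by RNase P, was not examined. The signal there does not show a poly-A tail on the mature RNA. Of 9097 annotated lincRNA transcripts, 31.7% held AATAAA on the transcript strand in their last 80 bases. The Neat1 entry of the expression values runs from 5842302 to 5845478 and so corresponds to the short transcript. It covers 15.3% of the length of the long one, which has no entry of its own. Reads from the long RNA that fall in this shared stretch cannot be told apart from reads of the short RNA.

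Neat1, the targeted gene, had 29.5 RPKM in wild type and 2.01 in NEAT1 KO. RPKM are reads scaled by entry length and by library size. The KO level was 6.82% of the wild-type level, with a 95% interval of 5.87% to 7.92% that covers counting error only. The log2 ratio, here always log2 of (KO RPKM + 1) over (wild-type RPKM + 1), was -3.34. Only Xist and Tsix had a lower log2 ratio among the 23329 entries. By level, Neat1 ranked 2293 of all entries in wild type and 9877 in NEAT1 KO. The remaining 2.01 RPKM correspond to 189 fragments, against 2929 in wild type, so that Neat1 was not at 0 in the KO library. Where in the entry these fragments lie is not given by RPKM values.

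Malat1 was also lower. It had 61.8 RPKM in wild type and 22.1 in NEAT1 KO, that is 35.7% of wild type (counting interval 34.5% to 36.9%) and a log2 ratio of -1.44. These levels rest on 13511 and 4555 fragments. In order of log2 ratio Malat1 ranked 13 from the lowest of all entries. Its rank by level was 1006 in wild type and 2997 in NEAT1 KO. Although the log2 ratio of Neat1 was further from 0, the difference in RPKM was larger for Malat1, at -39.7 RPKM against -27.4 RPKM for Neat1. Per length, Malat1 stood at 2.10 times the Neat1 level in wild type and at 11.0 times in NEAT1 KO. These are levels within poly-A+ RNA. How much RNA without a conventional poly-A tail entered each library was not measured, and such entry cannot be told apart from RNA level here. The Malat1 entry (chr19:5795690-5802671) ends 39.6 kb from the Neat1 entry, on its downstream side, and the entries do not overlap.

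**Figure D1:**
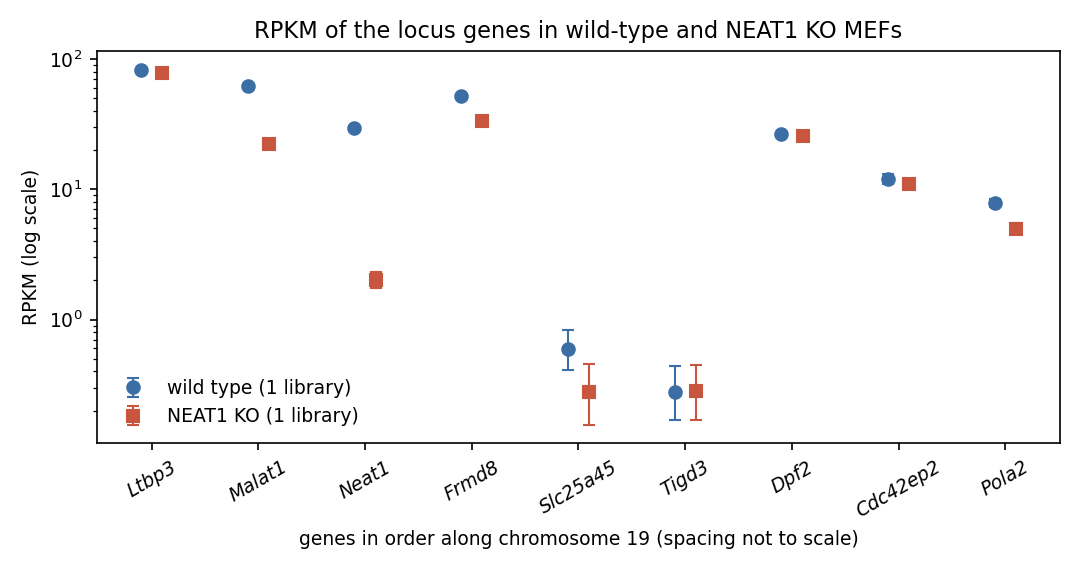
RPKM (log axis) of the 9 genes in wild-type (circles) and NEAT1 KO (squares) MEFs, 1 library each, in order along chromosome 19. Error bars are 95% exact Poisson intervals of the fragments, which cover counting error only. Neat1 dropped from 29.5 to 2.01 RPKM and Malat1 from 61.8 to 22.1 RPKM, whereas the pairs of points for Ltbp3, Dpf2, Cdc42ep2 and Tigd3 lie close together.

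Across all entries 78 (0.334%) had a log2 ratio below -1, and Neat1 and Malat1 were 2 of them. A log2 ratio below -2 was found in 4 entries (0.0171%), of which Neat1 was 1. Higher by more than 1 log2 unit were 228 entries (0.977%) and 0 of the 9 genes. Among the 5607 entries with at least 10 RPKM in wild type, which include Neat1 and Malat1, 33 (0.589%) were below -1. Neat1 and Malat1 thus belong to a small fraction of entries at this distance from 0, whichever of these backgrounds is taken. Of the 6 entries below -1 on chromosome 19 (760 entries in all), Neat1 and Malat1 were the ones within 500 kb of Neat1.

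Frmd8 is the nearest gene on the upstream side of Neat1. It encodes a FERM domain protein that binds iRhom proteins and stabilizes them with the cell surface protease ADAM17. Frmd8 (chr19:5850974-5875208) is transcribed from the same strand as Neat1, and its 3′ end lies 5.50 kb from the Neat1 entry. It had 51.6 RPKM in wild type and 33.2 in NEAT1 KO, a log2 ratio of -0.62, and the KO level was 64.3% of wild type (counting interval 61.5% to 67.2%). The difference of -18.4 RPKM was exceeded at this locus by Neat1 and Malat1 alone. Frmd8 did not reach the distance of 1 log2 unit, and 2.10% of all entries had a lower log2 ratio.

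Pola2, the B subunit of DNA polymerase alpha-primase, which starts DNA strands in replication, lies at chr19:5940543-5964206 on the minus strand, 95.1 kb from the Neat1 entry. It had 7.81 RPKM in wild type and 4.99 in NEAT1 KO, a log2 ratio of -0.56 and 63.9% of wild type (56.6% to 72.2%). By proportion its level in NEAT1 KO was close to that of Frmd8, and the 2 counting intervals overlapped. Below -0.5 there were 874 of all entries (3.75%) and 275 of those with at least 10 RPKM in wild type (4.9%), and 4 of the 9 genes were there: Neat1, Malat1, Frmd8 and Pola2. Above 0.5 there were 679 entries (2.91%) and 0 of the 9 genes.

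Dpf2 and Cdc42ep2 lie between Frmd8 and Pola2, and their levels in NEAT1 KO were closer to wild type than those of either. Dpf2, a subunit of BAF chromatin remodelling complexes, had 26.4 RPKM in wild type and 25.8 in NEAT1 KO, a log2 ratio of -0.03. Its counting interval, 92.2% to 104% of wild type, included equal levels. Cdc42ep2, an effector of the small GTPase CDC42 that acts on the actin cytoskeleton, had 12.0 and 11.0 RPKM, a log2 ratio of -0.12, and its interval of 80.9% to 104% also included equal levels. The entries of Dpf2 (chr19:5897135-5912866) and Cdc42ep2 (chr19:5917556-5924816), both on the minus strand, lie 51.7 kb and 72.1 kb from that of Neat1, nearer to it than Pola2.

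Slc25a45, of the mitochondrial carrier family, and Tigd3, a gene derived from a Tigger transposable element, were barely detected. Slc25a45 had 0.590 RPKM in wild type and 0.276 in NEAT1 KO, from 34 and 15 fragments. The KO level was 46.8% of wild type with a wide counting interval of 23.7% to 88.2%, and the log2 ratio of -0.32 is held near 0 by the added 1 RPKM. Without it the log2 ratio was -1.10. Tigd3 had 0.280 and 0.284 RPKM from 19 and 18 fragments, a log2 ratio of 0.0043. The counting interval of Tigd3 was wide, from 49.7% to 202% of wild type, and included equal levels. Slc25a45 (chr19:5878466-5885768, plus strand) and Tigd3 (chr19:5891138-5894107, minus strand) were 33.0 kb and 45.7 kb from the Neat1 entry.

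Ltbp3 (chr19:5740904-5758532, plus strand) stands beyond Malat1, 83.8 kb from the Neat1 entry. It encodes a latent TGF-beta binding protein, which holds the inactive growth factor in the extracellular matrix. With 82.9 RPKM in wild type and 78.6 in NEAT1 KO it was the highest of the 9 genes in both libraries. Its log2 ratio was -0.08. The KO level was 94.8% of wild type, and the interval of 92.4% to 97.1% did not reach equal levels, but after centring on the median of expressed entries the log2 ratio was -0.02, within counting error of 0. Of all entries 28.5% had a lower log2 ratio.

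**Figure D2:**
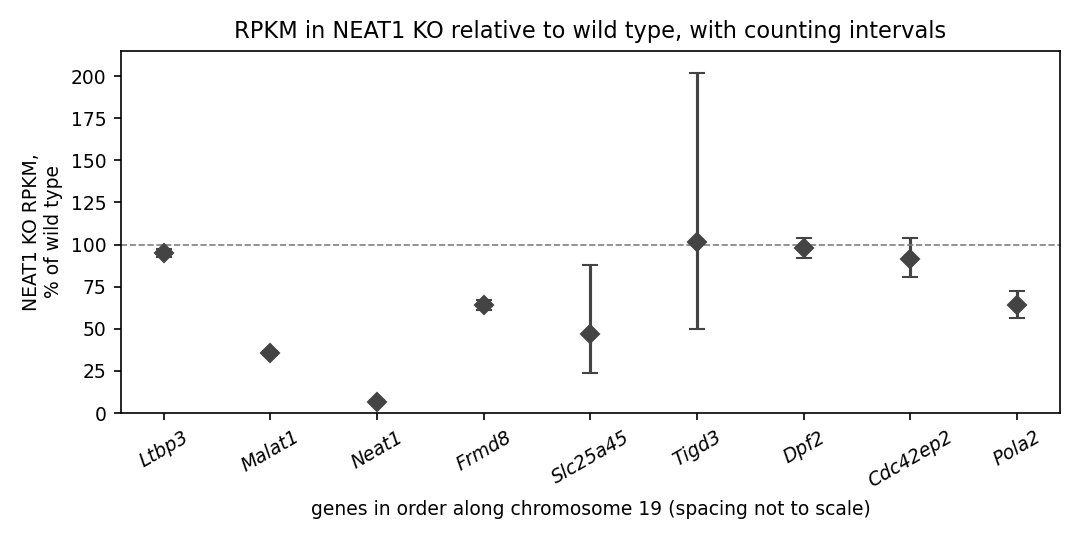
NEAT1 KO RPKM as a percent of wild type for the 9 genes in order along chromosome 19, 1 library per genotype. Bars are 95% exact binomial intervals for counting error only and the dashed line marks 100%. Neat1 (6.82%) and Malat1 (35.7%) lie lowest, Frmd8 (64.3%) and Pola2 (63.9%) share a level, and Slc25a45 and Tigd3 have the widest intervals.

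Seen together, 8 of the 9 log2 ratios were below 0, with a median of -0.32. All entries had a median of 0, with 10070 below 0 and 6226 at exactly 0. The 10888 entries that reached 1 RPKM in wild type and in NEAT1 KO alike had a median of -0.06, and 60.9% of them were below 0. The 7 genes other than Neat1 and Malat1 had a median of -0.12 and a range from -0.62 to 0.0043. The summed level of the 9 genes was 272.8 RPKM in wild type and 178.2 RPKM in NEAT1 KO, and Malat1, Neat1 and Frmd8 made up most of the difference.

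The order of levels changed with genotype. In wild type it was Ltbp3, Malat1, Frmd8, Neat1, Dpf2, Cdc42ep2, Pola2, Slc25a45 and Tigd3. In NEAT1 KO it was Ltbp3, Frmd8, Dpf2, Malat1, Cdc42ep2, Pola2, Neat1, Tigd3 and Slc25a45, so that Malat1 stood below Dpf2 and Neat1 below Pola2. Slc25a45 and Tigd3 were the only neighbours in either order whose counting intervals overlapped. A spread between cultures could not be set beside these orders.

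Position was examined with every chromosome 19 entry whose midpoint lies within 500 kb of the nearer end of the Neat1 entry. There were 65, among them the 9 genes. The other 56 had a median log2 ratio of 0.07, 0 of them were below -1, and 1 was below -0.5: Cdca5, a cohesin regulator (3.49 RPKM in wild type, 2.05 in NEAT1 KO, log2 ratio -0.56). Above 0.5 there were 3 of the 56, Fosl1 (0.59), Gm962 (0.66) and Fau. Above 1 there was 1 entry in the window, Fau, which encodes a ribosomal protein fused to a ubiquitin-like protein and had 19.8 RPKM in wild type and 48.5 in NEAT1 KO (log2 ratio 1.25). Within 1 Mb there were 95 entries, and the same 2 genes, Neat1 and Malat1, were below -1. Log2 ratios did not follow distance step by step: Slc25a45, Tigd3, Dpf2 and Cdc42ep2 lie between Frmd8 and Pola2, and the Dpf2 and Tigd3 values were within 0.03 of 0.

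**Figure D3:**
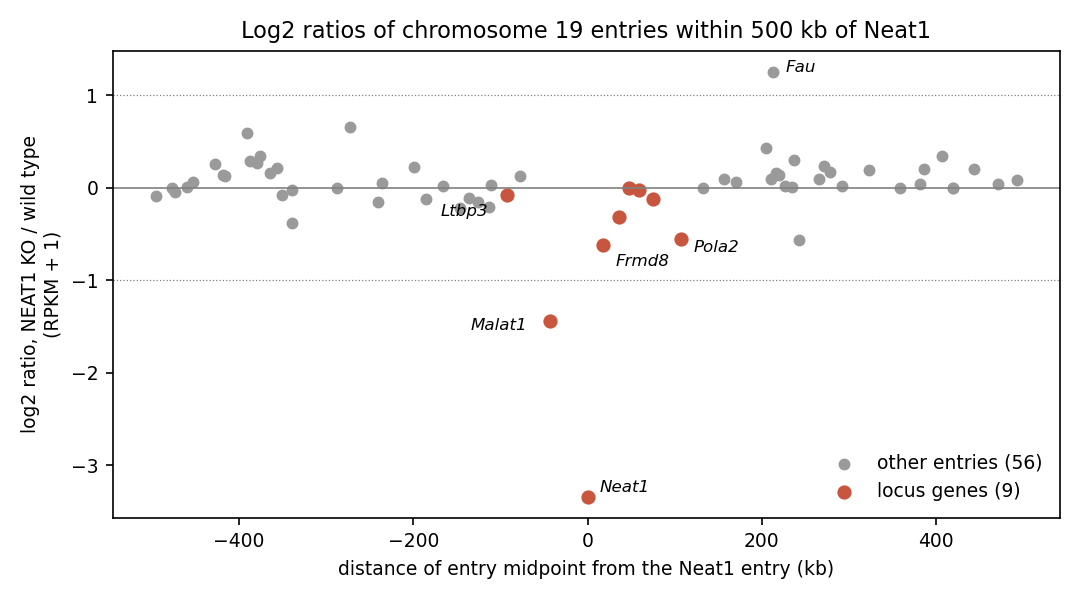
Log2 ratio of NEAT1 KO over wild type (RPKM + 1) against the distance of each entry's midpoint from the nearer end of the Neat1 entry (kb), for the 9 genes (red) and the other 56 entries within 500 kb (grey). Positive distances are on the upstream side of Neat1 and dotted lines mark -1 and 1. Neat1 (-3.34) and Malat1 (-1.44) lie below -1, and Fau (1.25) lies above 1.

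Promoters are shown for Malat1 and Frmd8, the genes on either side of Neat1, whose levels were both lower in NEAT1 KO. They are the 250 bases before and 50 bases after the gene start in RefSeq (GRCm38.p6), on the minus strand, chr19:5802623-5802922 for Malat1 and chr19:5875159-5875458 for Frmd8. They are written 5′ to 3′ with each CG dinucleotide in capitals.
Malat1: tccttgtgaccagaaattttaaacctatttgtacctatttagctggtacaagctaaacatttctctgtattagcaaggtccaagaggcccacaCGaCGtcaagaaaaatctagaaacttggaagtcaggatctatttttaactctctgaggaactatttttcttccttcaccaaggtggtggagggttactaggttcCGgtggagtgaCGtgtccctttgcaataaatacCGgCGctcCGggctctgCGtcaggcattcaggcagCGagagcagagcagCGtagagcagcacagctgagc
Frmd8: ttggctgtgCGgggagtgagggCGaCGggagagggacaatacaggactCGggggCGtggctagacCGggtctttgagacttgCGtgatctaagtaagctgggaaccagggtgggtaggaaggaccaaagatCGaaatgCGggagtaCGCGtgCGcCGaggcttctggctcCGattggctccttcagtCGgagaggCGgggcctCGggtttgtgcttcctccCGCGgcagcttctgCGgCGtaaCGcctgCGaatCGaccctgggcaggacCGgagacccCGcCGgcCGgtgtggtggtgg
The Malat1 promoter held 10 CG dinucleotides at a GC content of 47% and the Frmd8 promoter 28 at 64.7%. The median of all 32851 promoters was 7 CG dinucleotides and 52.7% GC. RefSeq promoters were matched for 8 of the 9 genes, all but Neat1. Pola2 had 30 CG dinucleotides, Tigd3 22, Dpf2 20, Cdc42ep2 17, Slc25a45 7 and Ltbp3 3, so the genes with lower levels in NEAT1 KO did not share a level of CG dinucleotides. A GC box (GGGCGG, either strand) was in 35.7% of all promoters and in those of Cdc42ep2, Pola2, Slc25a45 and Tigd3. The Slc25a45 promoter (chr19:5877572-5877871) does not reach the measured entry, which begins at 5878466, so it is that of another annotated start. A TATA box (TATAAA, either strand) was in 13.6% of all promoters and in 0 of these 8. The interferon-stimulated response element was in 3.44% of all promoters and the oestrogen response element in 0.0700%, and both were in 0 of the 8.

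The entries with a log2 ratio most like that of Neat1, taken as the 5 lowest over the 2 libraries, were Xist (28.6 RPKM in wild type, 0.0500 in NEAT1 KO, log2 ratio -4.82), Tsix (12.1 and 0.0275, -3.67), Neat1 itself, the histone gene Hist1h2af (5.47 and 0.572, -2.04) and Sema3a, a secreted guidance protein (8.38 and 1.50, -1.91). Xist and its antisense partner Tsix are transcribed from the X inactivation centre, and reads of the pair cannot be told apart without strand. Their drop went with Y-linked genes, which were at most 0.0174 RPKM in wild type: Eif2s3y was listed at 0 in wild type and had 6.30 RPKM in NEAT1 KO, and Ddx3y had 0.0174 and 4.18 RPKM. The sex of the cultures and the genotype therefore cannot be told apart in any value given here.

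**Figure D4:**
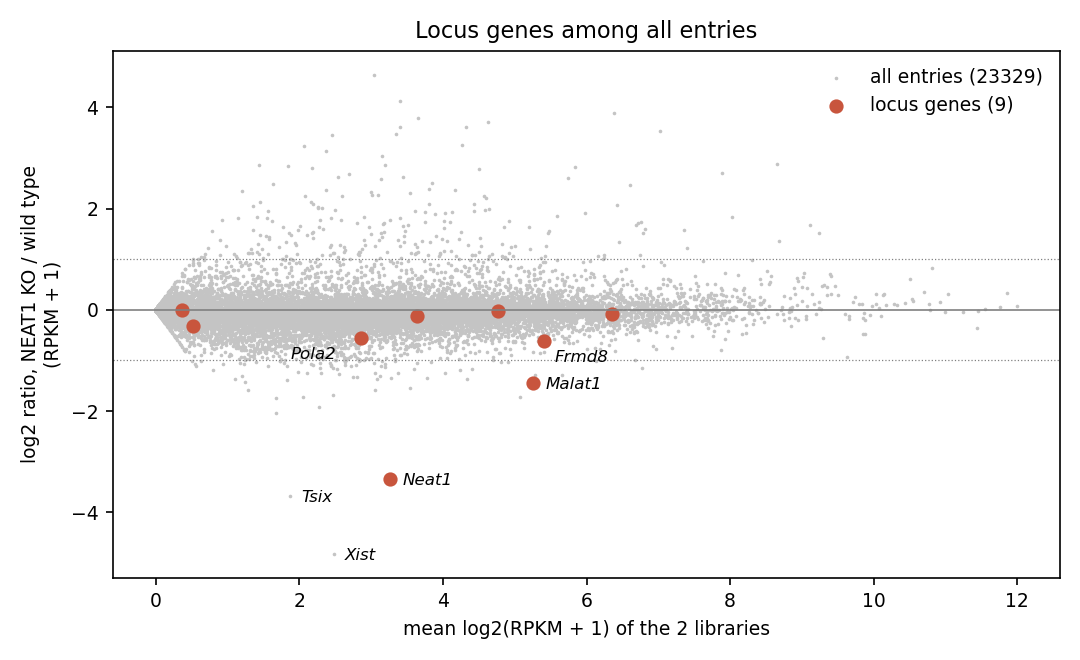
Log2 ratio of NEAT1 KO over wild type (RPKM + 1) against the mean log2(RPKM + 1) of the 2 libraries, for all 23329 entries (grey) and the 9 genes (red). Dotted lines mark -1 and 1. Neat1 lies apart from the entries of like level, beside Tsix and Xist, while Malat1 lies at the lower edge and the other genes within the body of entries.

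Malat1 and Neat1 were then set beside other nuclear and lncRNAs. Neat1 and Malat1 are themselves on the list and enter each of its counts and medians. Of 29 listed names 24 had an entry, 20 of these had a log2 ratio below 0, and the median was -0.23. Below -1 were 4 (Xist, Tsix, Neat1 and Malat1), beside 0.334% of all entries, and 1 was above 1, beside 0.977%. These 4 are the targeted gene, Malat1 itself and the pair Xist and Tsix, and no other listed RNA was below -1. Below -0.5 were 8, beside 3.75% of all entries. Of the 18 that reached 1 RPKM in both libraries, 15 (83.3%) were below 0, with a median of -0.33. All expressed entries had 60.9% below 0 and a median of -0.06. By mean level the highest were H19, an imprinted RNA (1089 RPKM in wild type, 782 in NEAT1 KO, log2 ratio -0.48), and the small nucleolar RNA host gene Snhg6 (111 and 159, 0.52). They were followed by Snhg1 (26.8 and 65.7, 1.26), which is also on chromosome 19, by Malat1, and by the imprinted Rian (33.8 and 19.2, -0.78). Among these 5, Snhg6 and Snhg1 were higher in NEAT1 KO, and Malat1 had the lowest log2 ratio. Most of the listed lncRNAs, counted with Neat1 and Malat1, were lower in NEAT1 KO.

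The proteins that assemble with Neat1 in paraspeckles had smaller differences in their mRNA. All 17 listed genes had an entry that reached 1 RPKM in each library, 17 were below 0 and the median was -0.30, against 60.9% below 0 and a median of -0.06 over all expressed entries. Below -1 there were 0 of the 17 and below -0.5 there was 1, Matr3 (24.2 RPKM in wild type, 13.9 in NEAT1 KO, log2 ratio -0.76). The shares were 0.334% and 3.75% of all entries, and 0.589% and 4.9% of entries with at least 10 RPKM in wild type. The lowest of the 17 had 3.04 RPKM in wild type, so not all of them belong to the second background. The core proteins Sfpq had 46.4 and 37.4 RPKM (-0.30), Nono 72.0 and 59.5 RPKM (-0.27) and Pspc1 12.7 and 12.4 RPKM (-0.04). Of 19 genes for nuclear speckle and splicing proteins, 18 were below 0 with a median of -0.17, beside the same 60.9% and -0.06 of expressed entries. Of these genes 0 were below -1, beside 0.334% of all entries and 0.589% of those with at least 10 RPKM in wild type. Below -0.5 there were 4 of the 19: Srsf1 (-0.52), Tra2b (-0.64), Clk1 (-0.55) and Srsf10 (-0.61). Beside them stand 3.75% of all entries and 4.9% of those with at least 10 RPKM. Each of the 19 had at least 5.41 RPKM in wild type, whereas all entries include those at 0. Tra2b (9.05 RPKM), Clk1 (8.62 RPKM) and Srsf10 (6.69 RPKM) were under 10 RPKM in wild type, so Srsf1 alone of the 4 belongs to the second background.

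**Figure D5:**
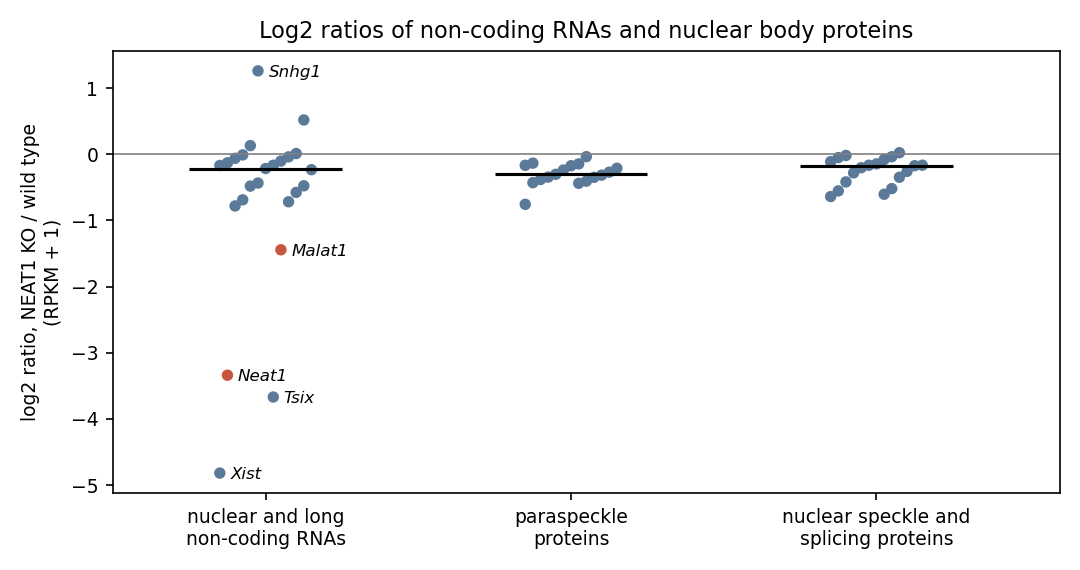
Log2 ratios of NEAT1 KO over wild type (RPKM + 1) for 24 nuclear and lncRNAs, 17 paraspeckle protein genes and 19 nuclear speckle and splicing protein genes, with 1 point per gene and a bar at the median (-0.23, -0.30 and -0.17). Neat1 and Malat1 are in red. Sideways spread has no meaning, and no protein gene of either list is below -1.

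Partners of the flanking genes were compared in the same way, from lists drawn up after the values of the 9 genes had been seen. The 4 subunit genes of DNA polymerase alpha-primase were all below 0, as were 60.9% of all expressed entries. They were Pola1 (2.05 RPKM in wild type, 0.829 in NEAT1 KO, log2 ratio -0.74), Prim1 (5.15 and 2.89, -0.66), Pola2 and Prim2 (6.97 and 5.26, -0.35). Below -0.5 were 3 of the 4, Pola2 among them, beside 3.75% of all entries. Pola2 thus lay between its partners, which are on chromosomes X, 10 and 1. Whether the Pola2 value went with its partners or with its position was not tested. The partners of Frmd8 did not lie with it: Rhbdf1 (iRhom1) had 29.4 and 28.0 RPKM (-0.07), Adam17 14.4 and 15.6 RPKM (0.11) and Rhbdf2 (iRhom2) 5.12 and 10.1 RPKM (0.86). Of 7 BAF complex genes including Dpf2 the median was -0.03. Cdc42 and its effectors, 6 genes with Cdc42ep2, had a median of 0.0021. Of 7 latent TGF-beta genes with Ltbp3 the log2 ratios ran from -0.76 for Ltbp1 to 0.54 for Tgfb1.

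The libraries differed in more than Neat1. The recovered totals were 3.07 Gb in wild type and 2.89 Gb in NEAT1 KO, counted here in fragments of 98 bases. All 14 fibroblast markers had at least 1 RPKM in both libraries, 10 with a log2 ratio above 0, 3 of these above 1 (Dcn, Lum and Pdgfra), and 4 below 0 (Fn1 -0.56, Vim -0.36, S100a4 -0.28 and Twist1 -0.21). All 20 interferon-response genes were above 0 and 18 were above 1, with a median of 2.57. Of all 23329 entries 7033 were above 0 and 228 (0.977%) above 1. The 7 macrophage and blood markers with an entry were all above 0 (summed level 19.9 RPKM in wild type, 49.6 in NEAT1 KO), mostly from Lyz2 (13.9 and 34.7). Lyz2, Cd68 (2.79 and 7.26) and Cd14 (1.67 and 4.73) were the 3 of the 7 with a log2 ratio above 1, beside 0.977% of all entries. Emr1, Csf1r, Fcgr3 and Ptprc were below 1 RPKM in wild type, and of these Emr1 alone was above 1 RPKM in NEAT1 KO (1.37). The 5 skeletal muscle markers summed to 18.9 and 7.46 RPKM, nearly all from Acta1 (12.6 and 4.26) and Des (6.28 and 3.20), with Myog, Myod1 and Myh3 listed at 0 in NEAT1 KO and near 0 in wild type. The 6 epithelial (1.12 and 0.684 RPKM), 5 endothelial (1.14 and 0.558) and 4 erythroid markers (0.146 and 0.0926) were near 0, and the 5 neural markers summed to 36.1 and 36.3 RPKM, nearly all from Tubb3. The part of these differences in the values of the 9 genes was not tested, and fewer cells that express a gene cannot be told apart from less RNA per cell.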

How the data were processed

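RNA of 1 wild-type and 1 NEAT1 KO MEF culture was sequenced as poly-A+ RNA from standard Illumina libraries, for which no strand marking is stated. The authors deposited RPKM, with no normalization between libraries stated; the submitters' processing notes name CASAVA 1.8 and the builds mm10 and hg18, and the aligner and counter are not given in the sources used here. The mouse coordinates matched mm10: of 5419 entries that end at an annotated transcript end, 5166 start at the annotated start once 1 is added to the 0-based start. Entries are printed with the coordinates deposited, and sequences 1-based.

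Log2 ratios were taken with a pseudocount of 1 RPKM over all 23329 entries. RPKM times length gave whole numbers of bases (within 0.1 base) in 97.8% of the single-exon entries above 0, with 98 bases the commonest value. Of 1420 multi-exon entries, 1413 were whole in both libraries. For the 9 genes whole bases were accepted within 0.25 base, and all 9 met this. Neat1 was taken as 1 exon with a length of 3178 bases and not as the 2 exons annotated. Covered bases of the 9 genes divided by 98 were taken as fragments. Exact Poisson intervals of levels and exact (Clopper-Pearson) 95% intervals of ratios were computed from the fragments. These intervals cover counting error only and take fragments as independent. PCR fragments are not independent molecules, so the intervals may be too narrow even for counting error. The scripts were tested on simulated data.

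Named genes were the 9 genes, entries within 500 kb beyond 1 log2 unit, the 5 lowest log2 ratios, the 5 lncRNAs of highest mean level and up to 4 genes per list. A further gene covered by this rule is not given here. Cdca5, Fosl1, Gm962, the cell type markers and the partners of the flanking genes were named after their values were seen. The genes and lists were chosen with earlier results of these data known. The results were recomputed with 0.1 as pseudocount, with entries under 1 RPKM in both libraries left out, with centring, with quantile normalization, with 1 entry per symbol and, added after the data were seen, with no pseudocount. Python 3.11.15, numpy 2.4.6, pandas 2.3.3, scipy 1.17.1 and matplotlib 3.10.9 were used.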

Additional observations from a re-analysis of the deposited data

How the results depend on the processing

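Without a replicate, a log2 ratio was counted as moved where it shifted by more than its distance to the 95% counting limits. For Neat1 it was -3.81 with a pseudocount of 0.1 and -3.87 with none, and after centring on the median of the expressed entries it was -1.39 for Malat1 and -0.02 for Ltbp3 (-0.08 before). With a pseudocount of 0.1, 1040 entries in place of 306 lay beyond 1 log2 unit, 500 higher and 540 lower. Neat1 and Malat1 were below -1 under every alternative run, and Slc25a45 joined them only without a pseudocount. Of 52 values of single genes under alternatives, 51 kept their sign, and the exception was Dpf2 (0.03 after centring). Slc25a45 and Tigd3 gave no value under the minimum of 1 RPKM. No paired analysis was possible because each genotype has 1 library. Depth limits Slc25a45 and Tigd3, and the lack of replicates limits every value.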
